A study of Mus musculus with 13 samples.

Results

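Nuclear receptors are transcription factors whose activity is set by small lipid-soluble ligands, and coregulators are the proteins they recruit to switch target genes on or off. The genes described here are 39 such genes: 32 receptors and 7 coregulators, found as rows of the deposited count table by their gene symbol. All 39 were among the 24421 symbols of the table, and 36 were abundant enough to be tested. They were compared between liver endothelial cells of germ-free (GF) and conventionally raised (CONV-R) wild-type mice.

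Most of these receptors bind DNA as dimers, many of them as partners of a retinoid X receptor, at repeats of the core motif AGGTCA. Without ligand, several hold corepressors such as Ncor1 on their targets, and ligand binding exchanges these for coactivators of the Ncoa and Ppargc1 families. In the liver, hepatocytes are known for Hnf4a, Ppara, Nr1i2 and Nr1i3, Kupffer cells for Nr1h3, and venous endothelium for Nr2f2. Bile acids, retinoids, oxysterols, fatty acids and thyroid hormone are among the ligands.

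RNA sequencing gave 13 libraries, 6 from GF mice, which lack live microbes, and 7 from CONV-R mice, which carry a normal microbiota. The comparison asks how the endothelial transcriptome of the liver differs in the absence of a microbiota. GF libraries carry the replicate numbers 8 to 13 and CONV-R libraries 1 to 7. The sources used here do not give age, sex, the isolation of the cells or whether each library is a separate animal, so p-values measure only the spread between these libraries, which may be technical. Library totals ranged from 23407168 to 35478115 counts in GF and from 7590320 to 32869515 in CONV-R. The library titles hold a code number, 6 in all GF libraries, 10 in CONV-R 1 to 4 and 9 in CONV-R 5 to 7. What it stands for is not stated, and since GF and CONV-R share no code number, code and group cannot be told apart.

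The 16 liver endothelial markers summed to 39776 ± 1016 CPM (counts per 1000000 counts of the library) in GF and 33575 ± 5647 CPM in CONV-R (mean ± SD). Both groups thus carried the labelled cell type, and the sum was higher in GF (exact two-sided permutation test, adjusted p = 0.0221 over 10 marker lists). Of the 16 endothelial markers, 8 were higher in GF and 0 lower, beside 11.4% and 12.7% of all genes tested, with a median log2 fold change of 0.36. The part of this difference in the results below was not tested. CONV-R 1 was lowest in the endothelial markers, at 22544 CPM. The B cell markers, of which 7 of 8 listed were in the count table, summed to 23.8 to 43.4 CPM in GF and to 61.0 to 1696 CPM in CONV-R, with CONV-R 1 highest. The 9 neutrophil and monocyte markers summed to 80.0 to 172 CPM in GF and to 206 to 2251 CPM in CONV-R. Neither list overlapped between the groups (exact permutation test, adjusted p = 0.00583 for each), and their part in the results below was not tested. The 18 hepatocyte markers summed to 1017 to 1577 CPM in GF and to 1624 to 10506 CPM in CONV-R, with CONV-R 1 and 7 highest (exact two-sided permutation test over all 1716 splits, adjusted p = 0.00971 over 10 marker lists). Of 17 hepatocyte markers tested, 12 were lower in GF and 0 higher, beside 12.7% and 11.4% of all genes tested. The 12 Kupffer cell markers summed to 3062 to 4787 CPM in GF and 3313 to 8991 CPM in CONV-R (adjusted p = 0.122), and the 10 cholangiocyte markers to 166 to 405 CPM in GF and 59.8 to 304 CPM in CONV-R (adjusted p = 0.0233). Fewer cells of a type and less RNA per cell cannot be told apart in bulk libraries.

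Of the 36 receptors and coregulators tested, 3 were higher in GF (Nr2c2, Rora and Esrrb), 4 were lower (Rxrg, Nr1i3, Ppargc1b and Rara) and 29 passed in neither direction (edgeR's quasi-likelihood test, Benjamini-Hochberg adjusted over 13915 genes, threshold 0.05). That is 19.4% of them, against 24.1% of all genes tested (11.4% higher and 12.7% lower), a share close to the background and no result about the group as a whole. Their median log2 fold change, GF over CONV-R, was 0.04, beside -0.01 for all genes. The fold change was under 0.2 on the log2 scale, in either direction, for 18 of the 36. Without CONV-R 1 and 7 the counts were again 3 higher and 4 lower, with Nr3c2 and Rxrb in place of Rara and Esrrb. Without CONV-R 5 and GF 12 they were 2 higher and 3 lower, with Rora and Rara no longer called.

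**Figure D1:**
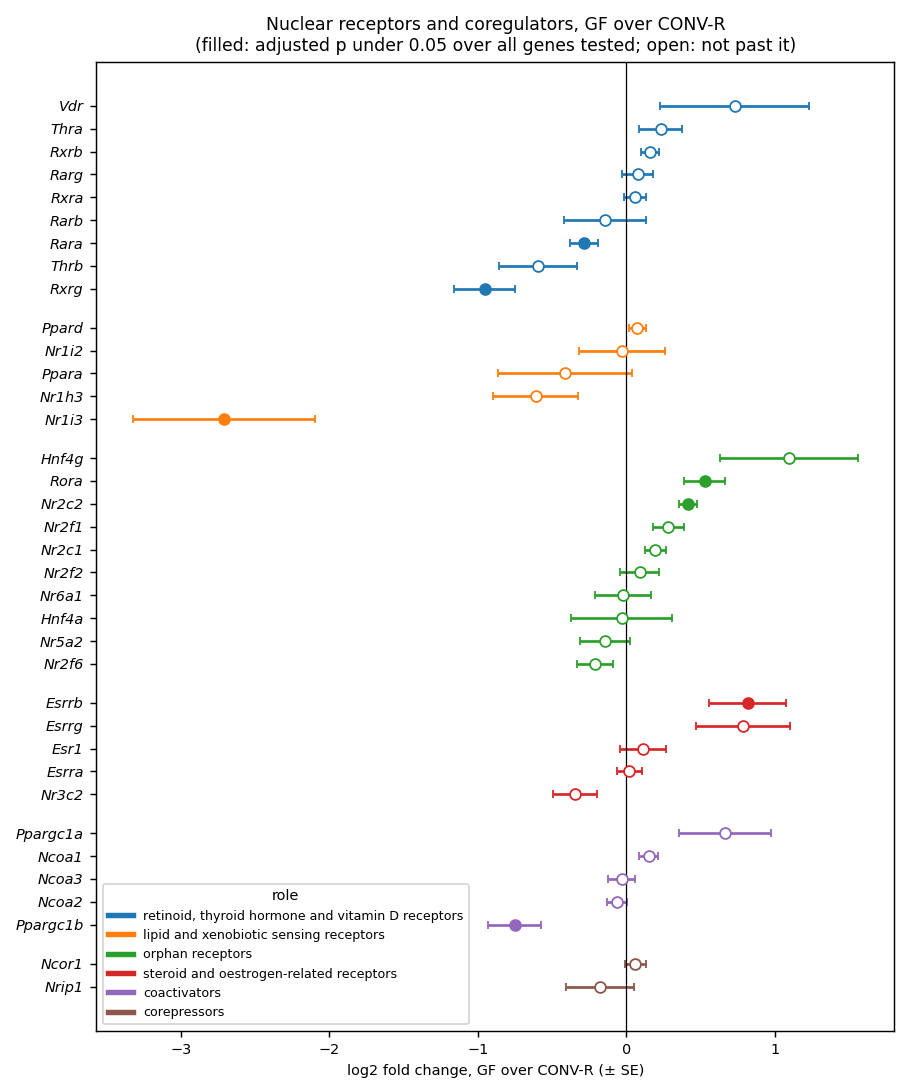
Log2 fold change, GF over CONV-R, of the 36 tested receptors and coregulators, grouped by role; points are edgeR estimates, bars ± 1 SE, and filled points have an adjusted p under 0.05. Most points lie close to 0, and Nr1i3 at -2.71 lies farthest out.

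The coactivator Ncoa3, the retinoid receptors Rarg and Rxra, and Nr2f2 were the 4 most abundant of the 39 per kilobase, and their order among themselves turned with the length used. Over the union of all annotated exons, Ncoa3 had a level of 62.2 ± 3.13 CPM per kb in GF and 63.6 ± 8.88 in CONV-R (mean ± SD, n = 6 and n = 7). Rarg had 54.8 ± 7.80 in GF and 52.0 ± 6.32 in CONV-R, Rxra had 52.7 ± 3.47 in GF and 50.7 ± 4.89 in CONV-R, and Nr2f2 had 32.0 ± 1.422 in GF and 30.1 ± 6.60 in CONV-R. Over the longest transcript, Rarg was first, with 79.01 CPM per kb in GF and 75.0 in CONV-R, followed by Ncoa3 (65.2 in GF and 66.6 in CONV-R), Nr2f2 (65.3 in GF and 61.4 in CONV-R) and Rxra (58.7 in GF and 56.4 in CONV-R). Over the union of exons, Nr1h3, Thra, Rxrb and Ncor1 followed at levels between 15.8 and 28.0 CPM per kb. At the low end of the tested genes stood Esrrg, Hnf4g, Vdr and Ppargc1a, none above 0.503 CPM per kb in either group. Of the 10 highest over the union of exons, 9 were also among the 10 highest over the longest transcript.

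**Figure D2:**
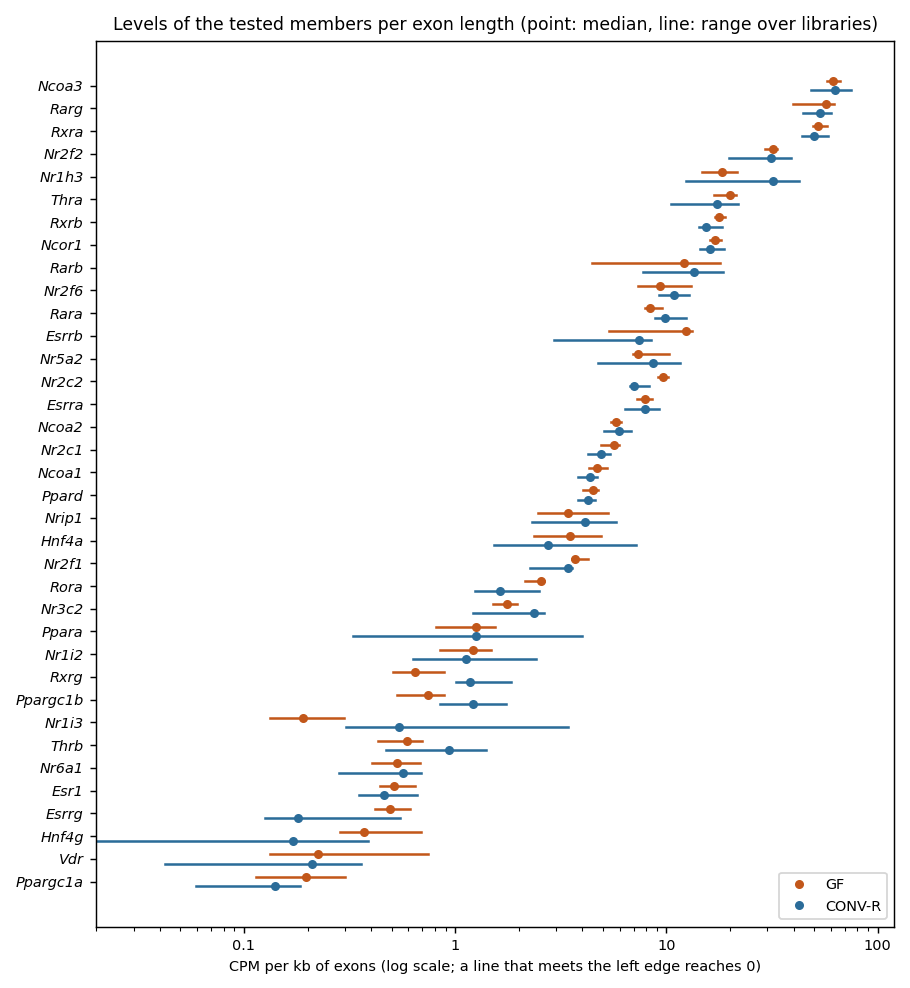
Level of each tested receptor and coregulator in CPM per kb of the union of exons (log axis), with the median as a point and the range over 6 GF and 7 CONV-R libraries as a line. Ncoa3, Rarg and Rxra are highest with this length, Ppargc1a is lowest, and for most genes the ranges of the groups overlap.

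The retinoid, thyroid hormone and vitamin D receptors numbered 9, of which 2 were lower in GF, Rxrg and Rara, and 0 higher. Of all genes tested, 12.7% were lower and 11.4% higher. The median log2 fold change of the 9 was 0.06. Rxrg, the least abundant of the retinoid X receptors that pair with other nuclear receptors, had 1.17, 1.48 and 2.03 CPM in GF (lowest, median and highest library), against 2.31, 2.71 and 4.21 CPM in CONV-R. No GF library reached the lowest CONV-R library, which held for 4.32% of all genes tested. The log2 fold change of -0.96 ± 0.20 (SE, adjusted p = 0.00595) passed the threshold in all 26 alternatives, with adjusted p of 1.48e-04 to 0.0418. Its counts were low, at 26 to 66 in GF and 20 to 141 in CONV-R. The other retinoid X receptors did not pass. Rxra had 269 to 315 CPM in GF and 239 to 319 CPM in CONV-R (log2 fold change 0.06 ± 0.07), and Rxrb 67.1 to 75.2 CPM in GF and 56.8 to 72.7 CPM in CONV-R (0.16 ± 0.06, adjusted p = 0.0640). Rxrg lies on chromosome 1 from 167598384 to 167639623 on the plus strand (GRCm38, as all positions here, from GENCODE).

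Rara, the retinoic acid receptor found in most tissues, had 34.4, 36.3 and 41.5 CPM in GF and 38.4, 42.8 and 53.8 CPM in CONV-R (lowest, median and highest). The groups overlapped, with 4 GF libraries below every CONV-R library. The difference was -0.29 ± 0.09 on the log2 scale (edgeR, adjusted p = 0.0372). CONV-R 5, 6 and 7 held 53.8, 50.4 and 52.3 CPM, while CONV-R 1 to 4 held 38.4 to 42.8 CPM, close to the GF libraries. Within the code numbers the log2 fold change was -0.50 against CONV-R 5 to 7 (adjusted p = 6.41e-04) and -0.12 against CONV-R 1 to 4 (adjusted p = 0.249). Leaving out any of 7 of the 13 libraries ended the call, with adjusted p up to 0.0740. Rara lies on chromosome 11 from 98927818 to 98974942 on the plus strand.

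The other retinoic acid receptors differed more between libraries than between groups. Rarb, whose own promoter is a known target of retinoic acid receptors, had 23.3, 63.5 and 94.5 CPM in GF and 40.7, 71.5 and 97.7 CPM in CONV-R, a log2 fold change of -0.15 ± 0.28. Rarg had 169, 244 and 265 CPM in GF and 190, 227 and 257 CPM in CONV-R, a log2 fold change of 0.08 ± 0.11. GF 12 was the lowest of all 13 libraries in both. Opposite-strand exons of Top2b share 34.1% of the exon bases of Rarb, and the sources used here do not say whether reads were counted by strand. Top2b had a log2 fold change of -0.07 ± 0.07.

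The promoter of Rarb is printed here because it holds the retinoic acid response element that textbooks describe, and short stretches of Rarg and Rxrg are printed for comparison with the core motif of the family. Sequences are from RefSeq on GRCm38.p6, each given 5′ to 3′ on the strand of its gene, with the motif in capitals. For Rarb the capitals leave out the first base of the element, the g just before them. The Rarb stretch is chr14:16575477-16575726 on the minus strand, the 250 bases before a transcript start. The Rarg stretch is chr15:102257712-102257772 on the minus strand, where the capitals are AGGTCA read on the opposite strand, and the Rxrg stretch is chr1:167618147-167618212 on the plus strand.
Rarb: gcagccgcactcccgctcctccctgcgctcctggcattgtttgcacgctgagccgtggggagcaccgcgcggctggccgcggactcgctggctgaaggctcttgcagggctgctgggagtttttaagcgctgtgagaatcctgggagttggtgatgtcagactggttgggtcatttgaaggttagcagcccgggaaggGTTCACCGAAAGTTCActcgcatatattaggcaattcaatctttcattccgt
Rarg: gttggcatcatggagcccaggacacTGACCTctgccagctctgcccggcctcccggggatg
Rxrg: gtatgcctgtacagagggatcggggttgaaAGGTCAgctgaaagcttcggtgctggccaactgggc

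Windows of 300 bases around transcript starts were searched on both strands for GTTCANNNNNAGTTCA and for AGGTCA. The longer pattern is a direct repeat with a spacer of 5 bases, without the first base of its first half-site, and its half-sites do not contain AGGTCA. It is the stretch in capitals of the Rarb element printed above with its spacer left free, so its match in Rarb was fixed in advance. Response elements built from other half-sites were not searched, so genes without this match may still hold one. This shortened repeat was found in 11 of 32851 windows (0.0335%), among these genes only in Rarb, with the match starting 52 bases before the start. AGGTCA was found in 5340 windows (16.3%) and in 7 of the 55 windows of these genes (12.7%), those of Nr5a2, Nr6a1, Rara, Rarg, Rxra, Rxrg and Thrb. A window was given for 34 of the 39 genes, several of them with more than 1 start, and not for Ncoa2, Ncoa3, Hnf4g, Thra and Ppargc1b. A match describes the letters of the window and not binding.

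Of the other genes of the retinoid pathway, 1 of 10 tested was lower in GF and 0 were higher, beside 12.7% and 11.4% of all genes. Their median log2 fold change was -0.21. The gene that passed was Rbp4, the retinol carrier that hepatocytes secrete, with 12.8 to 18.7 CPM in GF and 18.1 to 160 CPM in CONV-R (log2 fold change -2.03 ± 0.46, edgeR adjusted p = 0.00857). It moved with the hepatocyte markers, and with their summed level as a covariate its log2 fold change was 0.22 (adjusted p = 0.476). Cyp26b1, which breaks down retinoic acid and is induced by it, was the most abundant gene of this list and spanned the widest range. GF 12 had 11.4 CPM of Cyp26b1, while the other GF libraries had between 1491 (GF 13) and 3590.4 CPM (GF 10). CONV-R 5 and 3 had 24.5 and 121 CPM, and the other CONV-R libraries between 709 (CONV-R 2) and 2144 CPM (CONV-R 1). The difference between the groups did not pass, with a log2 fold change of 0.91 ± 0.94 (adjusted p = 0.497).

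The libraries lowest in Cyp26b1 were also the lowest of their groups in Rarb, at 23.3 CPM in GF 12 and 40.7 and 45.1 CPM in CONV-R 5 and 3. Dhrs3 and Tgm2, further retinoic acid targets of the list that were singled out after their values had been seen, were likewise lowest in GF 12. Dhrs3 had 233 CPM in GF 12, against 420.3 to 523 CPM in the other GF libraries. Tgm2 had 450.3 CPM in GF 12, against 714 to 826 CPM in the other GF libraries. In CONV-R 5 both were also the lowest of their group, at 279 and 618 CPM. This grouping of libraries was noticed in the data, and its part in the results was not tested. Rxrg also passed without CONV-R 5 and GF 12 (edgeR, adjusted p = 0.0180).

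**Figure D3:**
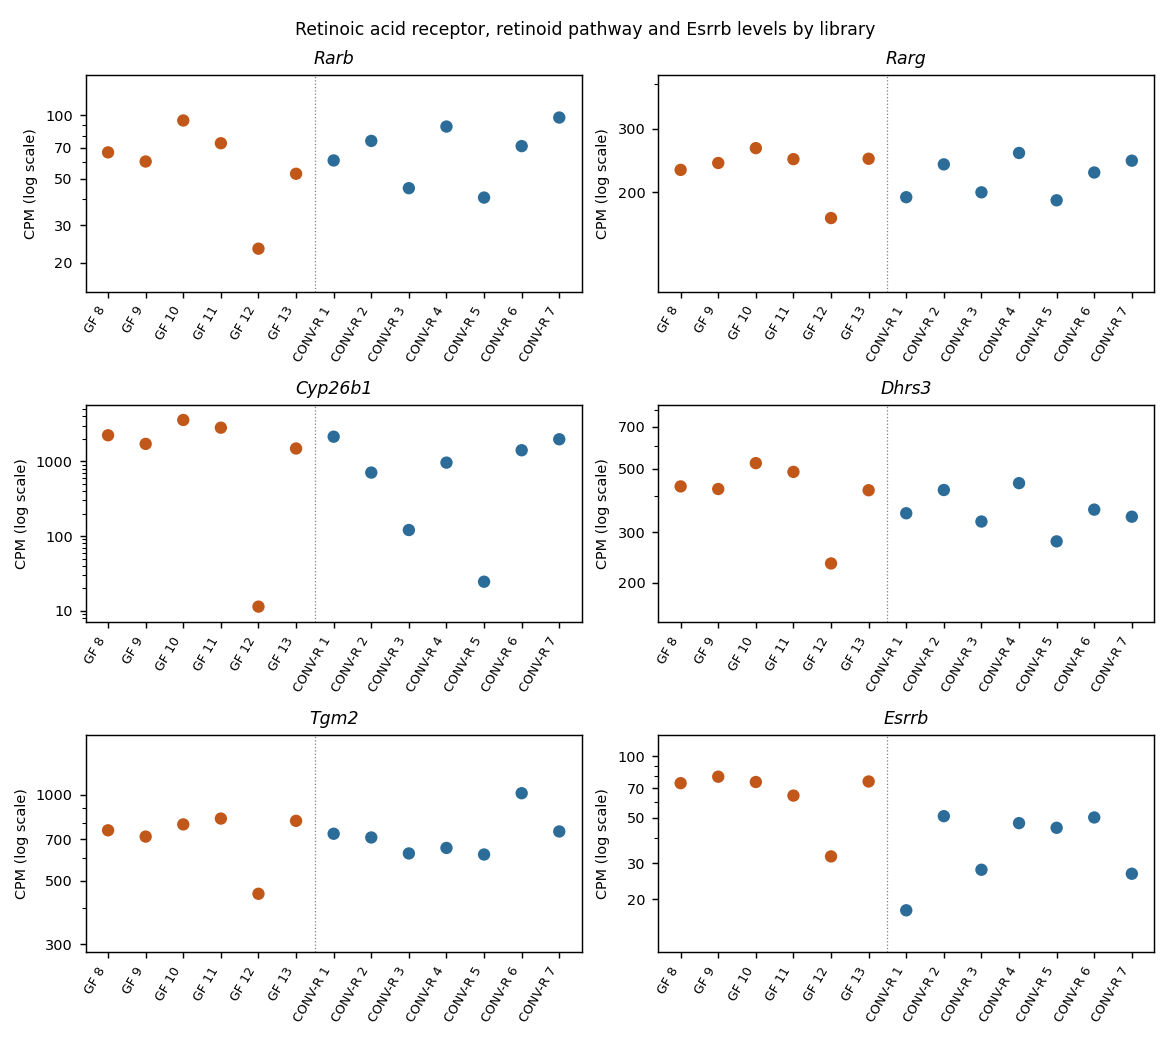
CPM (log axis) in each of the 6 GF and 7 CONV-R libraries of the retinoic acid receptors Rarb and Rarg, the retinoid genes Cyp26b1, Dhrs3 and Tgm2, and Esrrb, 1 point per library. GF 12 is the lowest GF library in all 6 panels, with 11.4 CPM of Cyp26b1.

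The thyroid hormone receptors did not pass the threshold. Thra, the more abundant, had 77.8, 92.6 and 98.03 CPM in GF and 48.4, 79.8 and 101.2 CPM in CONV-R (log2 fold change 0.23 ± 0.14, adjusted p = 0.247). Thrb, the main thyroid hormone receptor of hepatocytes, had 3.18, 4.39 and 5.17 CPM in GF and 3.49, 6.93 and 10.3 CPM in CONV-R (-0.60 ± 0.26, adjusted p = 0.108). Against CONV-R 5 to 7 alone both passed in edgeR, with log2 fold changes of 0.36 for Thra (adjusted p = 0.0179) and -1.01 for Thrb (adjusted p = 0.00239), and against CONV-R 1 to 4 neither did (0.14 and -0.21). The receptor for vitamin D, Vdr, was low throughout, at 0.751 to 4.19 CPM in GF and 0.239 to 2.03 CPM in CONV-R (0.73 ± 0.50, adjusted p = 0.296).

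Of 8 tested genes of thyroid hormone transport, activation and response, 3 were higher in GF and 1 was lower, beside 11.4% and 12.7% of all genes. Their median log2 fold change was -0.11. Klf9, a Krüppel-like factor that thyroid hormone and glucocorticoids induce, had 164 to 252 CPM in GF and 40.5 to 109 CPM in CONV-R, with no overlap (log2 fold change 1.47 ± 0.19, adjusted p = 2.78e-04). Hr, a corepressor induced by thyroid hormone in brain, had 2.16 to 2.58 CPM in GF and 0.418 to 1.77 CPM in CONV-R (1.27 ± 0.29, adjusted p = 0.00782). Dio1, the type 1 deiodinase that hepatocytes express, was the gene that was lower, with a log2 fold change of -3.09 ± 0.80 (edgeR, adjusted p = 0.0151). Its relation to the hepatocyte markers was not tested. Dio1 had 0.359 to 0.574 CPM in GF (8 to 19 counts) and 0.269 to 12.5 CPM in CONV-R (9 to 246 counts). The groups overlapped, and the lowest CONV-R library lay below all of GF.

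Of the 5 lipid and xenobiotic sensors, 1 was lower in GF, Nr1i3, and 0 were higher, beside 12.7% and 11.4% of all genes tested. Nr1i3, the constitutive androstane receptor through which hepatocytes respond to drugs and bilirubin, had 0.583, 0.840 and 1.31 CPM in GF and 1.34, 2.39 and 15.2 CPM in CONV-R. The groups did not overlap, by a narrow margin, and CONV-R 1 and 7 stood at 15.2 and 14.8 CPM. The log2 fold change was -2.71 ± 0.61 (edgeR, adjusted p = 0.00808), from 13 to 44 counts per GF library and 18 to 299 per CONV-R library. The level of Nr1i3 followed the hepatocyte markers across libraries. With their summed level as a covariate its log2 fold change was 0.063 (adjusted p = 0.962), and without CONV-R 1 and 7 it was -1.44 (adjusted p = 0.00723). Opposite-strand exons of Tomm40l share 74.9% of the exon bases of Nr1i3, and Tomm40l had 33.3 to 36.5 CPM in GF and 32.0 to 38.9 CPM in CONV-R. Nr1i3 lies on chromosome 1 from 171213970 to 171220701 on the plus strand.

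Nr1i2, the pregnane X receptor, and Ppara, the receptor for fatty acids that drives their oxidation in hepatocytes, did not pass. Nr1i2 had 2.16, 3.11 and 3.76 CPM in GF and 1.61, 2.87 and 6.18 CPM in CONV-R (log2 fold change -0.03 ± 0.29). Ppara had 3.10, 4.81 and 5.94 CPM in GF and 1.25, 4.83 and 15.2 CPM in CONV-R (-0.41 ± 0.45). The ranges of GF lay within those of CONV-R for both, while the summed hepatocyte markers of GF all lay below those of CONV-R. Per 1000 counts of hepatocyte markers, Ppara had 2.37 to 4.03 counts in GF and 0.787 to 1.56 in CONV-R, and Nr1i2 had 1.90 to 2.61 in GF and 0.377 to 1.11 in CONV-R. For both, the groups did not overlap. By the same measure Nr1i3 had 0.445 to 1.09 counts in GF and 0.690 to 1.75 in CONV-R, and the groups overlapped. With the marker level as a covariate in edgeR, the log2 fold change of Ppara was 1.84 (adjusted p = 0.00267) and that of Nr1i2 0.98 (adjusted p = 0.104). The part of hepatocyte RNA in these values was not tested beyond that fit, in which marker level and group move together.

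Nr1h3, the oxysterol receptor LXR alpha, had 36.9, 46.2 and 54.1 CPM in GF and 31.0, 80.2 and 106 CPM in CONV-R, a log2 fold change of -0.61 ± 0.29 that did not pass (adjusted p = 0.132). CONV-R 1, 5, 6 and 7 held 80.2 to 106 CPM and CONV-R 2, 3 and 4 held 31.0 to 38.8 CPM, with all GF libraries near or just above these. The Kupffer cell markers split the CONV-R libraries in the same way, at 5450 to 8991 CPM and 3313 to 4025 CPM. Per 1000 counts of Kupffer cell markers, Nr1h3 had 10.3 to 12.2 counts in GF and 9.41 to 15.4 in CONV-R. Against CONV-R 5 to 7 alone its log2 fold change was -1.05 (edgeR, adjusted p = 8.65e-05), and against CONV-R 1 to 4 it was -0.19 (adjusted p = 0.701). Ppard, the fatty acid receptor expressed in most cells, varied least of the 5, at 30.4 to 35.8 CPM in GF and 28.8 to 34.6 CPM in CONV-R (0.07 ± 0.06).

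**Figure D4:**
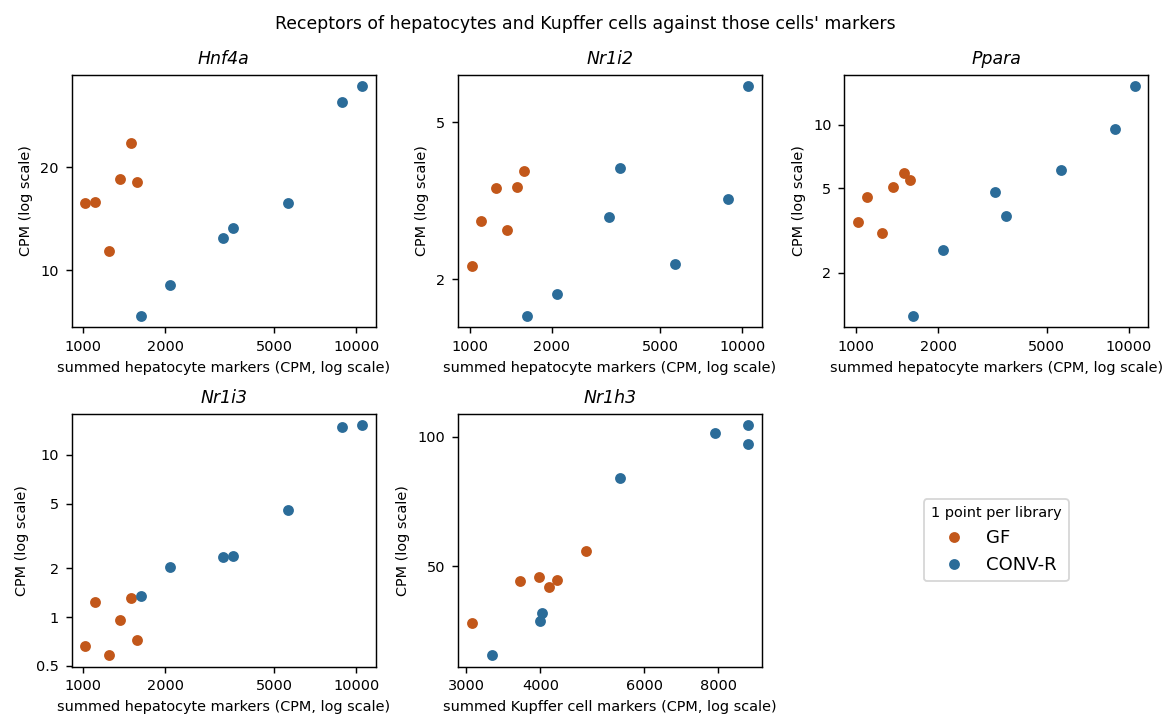
CPM of Hnf4a, Nr1i2, Ppara and Nr1i3 against the summed CPM of 18 hepatocyte markers, and of Nr1h3 against 12 Kupffer cell markers, 1 point per library (6 GF, 7 CONV-R, log axes). For Hnf4a, Nr1i2 and Ppara the GF points lie above the CONV-R points of similar marker level, while Nr1i3 and Nr1h3 lie along a common trend.

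The target genes of these sensors, from lists made for each receptor, were described beside them. Of 13 tested targets of PXR and CAR, 8 were lower in GF and 0 higher, beside 12.7% and 11.4% of all genes tested. Their median log2 fold change was -1.43, against -0.01 for all genes. Cyp3a11, a cytochrome P450 of drug metabolism, had 0.980 to 1.62 CPM in GF and 21.8 to 516 CPM in CONV-R (log2 fold change -7.42 ± 0.92, adjusted p = 2.15e-04); it belongs to a family of near-identical genes whose counts are uncertain. Ces2a, a carboxylesterase, had 1.03 to 1.97 CPM in GF and 2.39 to 40.1 CPM in CONV-R (-3.36 ± 0.62, adjusted p = 0.00262). Abcc2, a bile canalicular export pump, had 1.39 to 2.52 CPM in GF and 3.62 to 29.7 CPM in CONV-R (-2.60 ± 0.53, adjusted p = 0.00467). Abcc3, an export pump of the basolateral membrane, was the most abundant, at 76.2 to 104 CPM in GF and 89.5 to 200 CPM in CONV-R (-0.54 ± 0.17, adjusted p = 0.0327). The targets are hepatocyte genes for the most part. With the hepatocyte markers as a covariate 1 was lower and 1 higher, while calls over all genes fell from 24.1% to 3.84%. Why the targets lost their calls was not tested.

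Of 17 PPAR targets, 3 were higher in GF and 1 was lower, beside 11.4% and 12.7% of all genes tested, with a median of -0.02. Pdk4, the kinase that shuts pyruvate out of oxidation, had 106 to 167 CPM in GF and 50.9 to 88.7 CPM in CONV-R, with no overlap (log2 fold change 0.90 ± 0.13, adjusted p = 6.02e-04). Cpt1a, the gate of mitochondrial fatty acid oxidation, had 189 to 271 CPM in GF and 98.4 to 228 CPM in CONV-R (0.59 ± 0.17, adjusted p = 0.0230). Creb3l3, a membrane-bound transcription factor of hepatocytes, was lower, at 1.502 to 2.91 CPM in GF and 1.76 to 19.5 CPM in CONV-R (-1.98 ± 0.54, adjusted p = 0.0186), and its log2 fold change was 0.76 with the hepatocyte covariate (adjusted p = 0.0874).

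Of 11 LXR targets, 2 were higher and 4 lower in GF, beside 11.4% and 12.7% of all genes tested, with a median of -0.18. Mylip, the ubiquitin ligase that degrades the LDL receptor, had 722 to 956 CPM in GF and 332 to 533 CPM in CONV-R (log2 fold change 0.93 ± 0.11, adjusted p = 1.16e-04). Scd1, the stearoyl-CoA desaturase, had 64.4 to 76.2 CPM in GF and 111 to 407 CPM in CONV-R (-1.70 ± 0.26, adjusted p = 7.89e-04). Srebf1, the transcription factor of fatty acid synthesis, had 52.7 to 61.2 CPM in GF and 68.9 to 85.5 CPM in CONV-R (-0.42 ± 0.06, adjusted p = 8.63e-04). In each of the 3 the groups did not overlap, so that targets of the same receptor lay on opposite sides.

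The orphan receptors, whose natural ligands are disputed or unknown, numbered 11, of which 10 were tested. Of these 10, 2 were higher in GF and 0 lower, beside 11.4% and 12.7% of all genes tested, with a median of 0.14. Nr2c2, the testicular receptor 4, which binds repeats of the core motif, had 136, 145 and 152 CPM in GF and 100.5, 104 and 124 CPM in CONV-R. The highest CONV-R library lay below the lowest GF library, which held for 5.94% of all genes tested. GF exceeded CONV-R by 0.41 ± 0.06 on the log2 scale (edgeR, adjusted p = 5.02e-04), the smallest adjusted p of the 36 genes. Leaving out each library in turn gave 0.39 to 0.45, and both code numbers gave a call (0.37 and 0.47). It was lost in 1 of 26 alternatives, the hepatocyte covariate (0.26, adjusted p = 0.0641). Opposite-strand exons of Mrps25 share 30.7% of the exon bases of Nr2c2, and Mrps25 had 19.6 ± 1.33 CPM in GF and 17.6 ± 0.863 CPM in CONV-R (0.16 ± 0.06, adjusted p = 0.0678). Nr2c2 lies on chromosome 6 from 92091390 to 92174294 on the plus strand. Its relative Nr2c1 had 22.6, 25.9 and 27.3 CPM in GF and 19.5, 22.7 and 24.8 CPM in CONV-R (0.19 ± 0.07, adjusted p = 0.0605).

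Rora, which activates clock genes at the sites where Nr1d1 represses them, had 28.1, 33.3 and 34.5 CPM in GF and 16.2, 21.3 and 32.4 CPM in CONV-R. The groups overlapped through CONV-R 3 and GF 9, and the other 5 GF libraries exceeded all of CONV-R. The log2 fold change was 0.53 ± 0.14 (edgeR, adjusted p = 0.0162). It was 0.68 against CONV-R 5 to 7 (adjusted p = 4.34e-04) and 0.42 against CONV-R 1 to 4 (adjusted p = 0.108). The call was lost in 6 of 26 alternatives, among them the hepatocyte covariate (0.13, adjusted p = 0.714). Rora lies on chromosome 9 from 68653786 to 69388246 on the plus strand. Of 6 clock genes that ROR proteins are known to regulate, 1 was higher in GF and 0 lower, beside 11.4% and 12.7% of all genes. Their median was -0.06. The gene that was higher was Nr1d1, itself a nuclear receptor, with 247 to 321 CPM in GF and 58.2 to 226 CPM in CONV-R (1.16 ± 0.30, adjusted p = 0.0150). Its exons overlap those of Thra on the opposite strand, over 5.70% of the exon bases of Thra.

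Nr2f1 and Nr2f2, the COUP transcription factors, of which Nr2f2 sets venous identity in endothelium, did not pass. Nr2f1 had 18.3, 18.9 and 21.6 CPM in GF and 11.5, 17.4 and 18.1 CPM in CONV-R, with no overlap by a narrow margin (log2 fold change 0.28 ± 0.10, edgeR adjusted p = 0.0636). Nr2f2 had 254, 277 and 288 CPM in GF and 171, 269 and 334 CPM in CONV-R (0.09 ± 0.13). The spread of Nr2f2 between libraries, as a coefficient of variation, was 4.45% in GF and 21.95% in CONV-R. Nr2f6, a related repressor, had 21.9 to 38.9 CPM in GF and 27.4 to 38.1 CPM in CONV-R (-0.21 ± 0.12), and shares 54.4% of its exon bases with opposite-strand exons of Ocel1.

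Hnf4a, a factor of hepatocyte identity, had 11.4, 16.9 and 23.6 CPM in GF and 7.35, 13.3 and 34.6 CPM in CONV-R (log2 fold change -0.03 ± 0.34, edgeR adjusted p = 0.957). Within CONV-R its level followed the hepatocyte markers, with 34.6 and 31.1 CPM in CONV-R 1 and 7, and 9.04 and 7.35 CPM in CONV-R 3 and 4. Per 1000 counts of hepatocyte markers it had 8.69, 13.6 and 15.5 counts in GF and 2.87, 3.83 and 4.61 counts in CONV-R, with no overlap. The marker sums alone did not overlap either, at 1017 to 1577 CPM in GF and 1624 to 10506 CPM in CONV-R. A gene that does not fall with these markers tends to a higher ratio in GF, so the ratio shows nothing particular to Hnf4a. With those markers as a covariate the log2 fold change of Hnf4a was 1.54 (edgeR, adjusted p = 0.00146), and without CONV-R 1 and 7 it was 0.58 (adjusted p = 0.0700). Of 12 HNF4A targets, 10 were lower in GF and 0 higher, beside 12.7% and 11.4% of all genes tested. Their median was -2.20, and 2 were lower with the covariate, under which calls over all genes fell from 24.1% to 3.84%. The lower targets included Cyp8b1, the sterol hydroxylase that makes cholic acid, with 1.05 to 2.10 CPM in GF and 4.70 to 35.4 CPM in CONV-R (-3.34 ± 0.51, adjusted p = 8.21e-04). G6pc, the glucose-6-phosphatase of gluconeogenesis, had 0.770 to 1.497 CPM in GF and 2.88 to 19.0 CPM in CONV-R (-3.09 ± 0.43, adjusted p = 4.90e-04). Cyp7a1, which begins the classical route to bile acids, had 0.0442 to 0.809 CPM in GF and 0.623 to 20.3 CPM in CONV-R (-4.67 ± 0.87, adjusted p = 0.00290), and Apoa2, an apolipoprotein and the most abundant of the 12, had 28.5 to 45.2 CPM in GF and 47.8 to 404 CPM in CONV-R (-2.21 ± 0.44, adjusted p = 0.00427). The targets thus lay on the same side as the hepatocyte markers, and Hnf4a passed in neither direction. The cholangiocyte markers moved with the group too, with 5 of 10 higher in GF and 1 lower, beside 11.4% and 12.7% of all genes tested. With these markers as a covariate Hnf4a had a log2 fold change of 0.55 (edgeR, adjusted p = 0.639).

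Hnf4g, its relative of gut and kidney, had 0.751 to 1.82 CPM in GF and 0 to 1.02 CPM in CONV-R, from 17 to 59 counts in GF and 0 to 31 in CONV-R (log2 fold change 1.10 ± 0.47, edgeR adjusted p = 0.0992). Nr5a2, the receptor LRH-1 of bile acid synthesis, had 40.9 to 60.4 CPM in GF and 27.8 to 68.7 CPM in CONV-R (-0.15 ± 0.17). Nr6a1, a germ cell factor, had 4.36 to 7.39 CPM in GF and 3.06 to 7.47 CPM in CONV-R (-0.02 ± 0.19). Rorb, a receptor of brain and retina, was too rare to test, with 3 counts over all GF libraries and 2 over all CONV-R libraries.

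**Figure D5:**
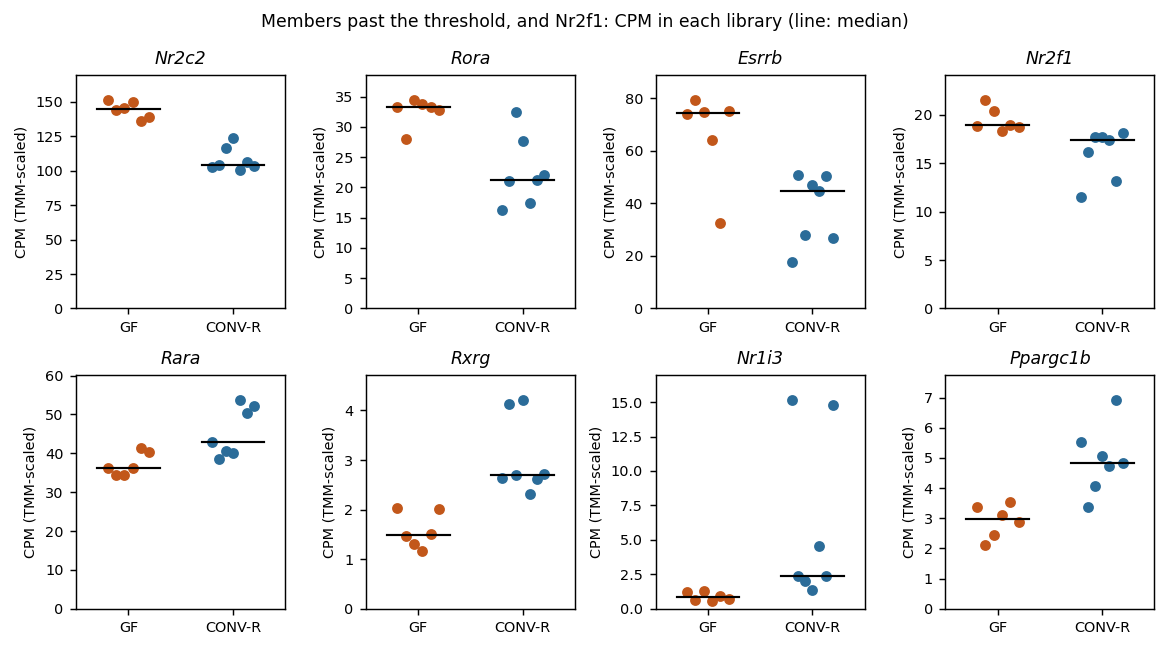
CPM in each library of the 7 genes past the threshold and of Nr2f1, with GF on the left and CONV-R on the right of each panel and the median as a line (axes start at 0). Nr2c2, Nr2f1, Rxrg and Nr1i3 show no overlap between the groups, and Rora, Esrrb, Rara and Ppargc1b do.

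Of the 7 steroid and oestrogen-related receptors, 5 were tested, 1 was higher in GF and 0 lower, beside 11.4% and 12.7% of all genes tested. Esrrb, an orphan relative of the oestrogen receptors known from the pluripotency network of mouse embryonic stem cells, had 32.4, 74.4 and 79.6 CPM in GF and 17.7, 44.8 and 51.0 CPM in CONV-R. The groups overlapped through GF 12, and the other 5 GF libraries exceeded all of CONV-R. The estimate was 0.82 ± 0.26 on the log2 scale (edgeR, adjusted p = 0.0347), and 0.95 without GF 12 (adjusted p = 0.0170). Leaving out any of 8 of the 13 libraries ended the call, with adjusted p up to 0.0804, as did the hepatocyte covariate (0.28, adjusted p = 0.779). Esrrb also did not pass against CONV-R 1 to 4 alone, against CONV-R 5 to 7 alone, or with the Kupffer cell or cholangiocyte covariate. Esrrb lies on chromosome 12 from 86361117 to 86521628 on the plus strand. Esrrg, of the same subfamily, had 2.60 to 3.81 CPM in GF and 0.784 to 3.42 CPM in CONV-R (0.79 ± 0.32, adjusted p = 0.0854). Its log2 fold change was 1.71 against CONV-R 5 to 7 (adjusted p = 2.83e-04) and 0.39 against CONV-R 1 to 4 (adjusted p = 0.326). Esrra, which with the PGC-1 proteins drives mitochondrial genes, had 31.8 to 37.3 CPM in GF and 28.0 to 40.6 CPM in CONV-R (0.02 ± 0.08).

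The oestrogen receptor Esr1 had 6.01 to 8.81 CPM in GF and 4.76 to 9.00 CPM in CONV-R (log2 fold change 0.11 ± 0.16). Esr2 had 1 count in each group and was not tested. The progesterone receptor Pgr had 9 counts over 3 GF libraries and 0 in the CONV-R libraries, and was not tested. With 0 set to a floor of 3 counts over the group, the ratio of GF to CONV-R was 2.50. That floor covers the counting error of the 0 counts only, not that of the 9 or the spread between libraries. The ratio is therefore no lower bound. Nr3c2, the mineralocorticoid receptor, had 9.82, 11.3 and 12.7 CPM in GF and 7.86, 15.3 and 17.0 CPM in CONV-R (-0.35 ± 0.15, edgeR adjusted p = 0.0989). CONV-R 1 alone lay below the GF range, at 7.86 CPM, and the other CONV-R libraries lay above that range, at 13.4 to 17.0 CPM. Without CONV-R 1 the log2 fold change was -0.47 (adjusted p = 0.00190).

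Of 7 tested genes that the mineralocorticoid and glucocorticoid receptors share as targets or partners, 4 were higher in GF and 1 was lower. Beside these stood 11.4% and 12.7% of all genes tested, and the median of the 7 was 0.80. Fkbp5, a chaperone of steroid receptors, had 192 to 381 CPM in GF and 64.5 to 107.4 CPM in CONV-R (log2 fold change 1.87 ± 0.17, adjusted p = 2.52e-05). Zbtb16, a zinc finger factor that glucocorticoids induce, had 72.3 to 199 CPM in GF and 1.76 to 6.74 CPM in CONV-R (5.51 ± 0.33, adjusted p = 6.78e-07). Per1, a clock gene that glucocorticoids induce, had 46.2 to 91.3 CPM in GF and 19.7 to 43.1 CPM in CONV-R (1.26 ± 0.21, adjusted p = 0.00148). Sgk1, the kinase through which aldosterone acts on sodium channels, was the most abundant and did not pass, at 499 to 721 CPM in GF and 377 to 731 CPM in CONV-R (0.01 ± 0.14). The glucocorticoid receptor gene Nr3c1 itself had 206 to 226 CPM in GF and 201 to 266 CPM in CONV-R (-0.06 ± 0.07). The number higher was also 4 against either CONV-R code number and with the hepatocyte covariate.

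Of the 5 coactivators, 1 was lower in GF, Ppargc1b, and 0 were higher, beside 12.7% and 11.4% of all genes tested. Ppargc1b, the PGC-1 beta coactivator of mitochondrial and lipogenic genes, had 2.12, 2.98 and 3.52 CPM in GF and 3.38, 4.82 and 6.92 CPM in CONV-R. The groups overlapped only through GF 12 and CONV-R 2, and 5 GF libraries lay below every CONV-R library. The log2 fold change was -0.75 ± 0.18 (edgeR, adjusted p = 0.01003), and the call held on leaving out each library (adjusted p of 0.00476 to 0.0243). It was lost in 5 other alternatives, among them the hepatocyte covariate (-0.66, adjusted p = 0.195) and CONV-R 1 to 4 alone (-0.63, adjusted p = 0.0533). Ppargc1a, the better known PGC-1 alpha, was rare, at 0.751 to 1.99 CPM in GF and 0.389 to 1.22 CPM in CONV-R, and did not pass (0.66 ± 0.31, adjusted p = 0.127). The log2 ratio of Ppargc1b to Ppargc1a per exon length was 1.02 to 2.44 in GF and 2.41 to 4.87 in CONV-R, with 5 of 6 GF libraries below every CONV-R library. That ratio needs no scaling between libraries and was not tested.

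Of 13 genes of mitochondrial metabolism that PGC-1 and ERR proteins drive, 1 was higher in GF and 0 lower, beside 11.4% and 12.7% of all genes. Their median was 0.01. The gene that passed was Gabpa, an ETS factor of mitochondrial gene control, with 82.9 to 97.2 CPM in GF and 58.3 to 83.5 CPM in CONV-R (log2 fold change 0.36 ± 0.09, edgeR adjusted p = 0.0106). Atp5b, a subunit of the ATP synthase, was the most abundant, at 462 to 527 CPM in GF and 377 to 491 CPM in CONV-R (0.14 ± 0.07, adjusted p = 0.165).

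The p160 coactivators, which bring histone acetyltransferases to liganded receptors, varied little. Ncoa1 had 37.0 to 44.9 CPM in GF and 32.5 to 40.1 CPM in CONV-R (log2 fold change 0.15 ± 0.06, edgeR adjusted p = 0.0948). Ncoa2 had 85.4 to 95.4 CPM in GF and 79.4 to 106 CPM in CONV-R (-0.06 ± 0.07), and Ncoa3 454 to 521 CPM in GF and 381 to 591 CPM in CONV-R (-0.03 ± 0.09). Neither corepressor passed. Ncor1, which holds histone deacetylase at unliganded receptors, had 207 to 231 CPM in GF and 184 to 239 CPM in CONV-R (0.06 ± 0.07). Nrip1, the ligand-dependent repressor RIP140, had 28.4 to 60.3 CPM in GF and 26.3 to 65.8 CPM in CONV-R (-0.18 ± 0.23).

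Coregulators outside the 39 genes changed in both directions, with 2 of 21 higher in GF and 4 lower, beside 11.4% and 12.7% of all genes. Their median was 0.00. Pprc1, the third gene of the PGC-1 family, had 36.4 to 43.6 CPM in GF and 47.6 to 65.3 CPM in CONV-R (log2 fold change -0.59 ± 0.07, adjusted p = 1.65e-04). Trim24, a coregulator of retinoic acid receptors, had 40.4 to 50.6 CPM in GF and 56.3 to 82.3 CPM in CONV-R (-0.59 ± 0.09, adjusted p = 9.16e-04). In both the groups did not overlap. Nsd1, a histone methyltransferase that binds nuclear receptors, was the most abundant of the list and did not pass, at 205 to 237 CPM in GF and 194 to 241 CPM in CONV-R (0.00 ± 0.07).

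Of 13 tested receptors outside the 39 genes, 2 were higher and 2 lower in GF, beside 11.4% and 12.7% of all genes, with a median of -0.17. Besides Nr1d1, its relative Nr1d2 was higher, at 118 to 144 CPM in GF and 56.0 to 106.97 CPM in CONV-R (log2 fold change 0.81 ± 0.14, adjusted p = 0.00188). Nr4a1, an immediate early receptor that stress induces, was lower, at 11.3 to 15.9 CPM in GF and 27.0 to 90.1 CPM in CONV-R (-1.82 ± 0.25, adjusted p = 4.57e-04). Pparg, the fatty acid receptor of adipocytes, named after its values had been seen, was the other that was lower, at 4.55 to 6.45 CPM in GF and 5.80 to 13.1 CPM in CONV-R (-0.58 ± 0.17, adjusted p = 0.0244).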

How the data were processed

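Polyadenylated RNA of liver endothelial cells was sequenced from stranded libraries, per the labels' protocols. Raw counts per gene were deposited by the authors in a single table. The submitters' processing notes name STAR 2.7.5a, FastQC 0.11.9, DESeq2 1.42.1 and featureCounts 2.0.1, with the build mm10. The annotation, the strand setting and the treatment of multi-mapping reads were not found in the sources used here, so overlapping and near-identical genes may share reads.

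The test was edgeR 4.0.16 (R 4.3.3), using filterByExpr (minimum count 10, minimum total 15), TMM scaling, robust quasi-likelihood fits of group over all 13 libraries and Benjamini-Hochberg adjustment over 13915 genes, at a threshold of 0.05. The fit was tested on simulated data. CPM are counts per 1000000 of the TMM-scaled library, and marker sums per 1000000 of the library total. SE is the absolute log2 fold change over the square root of F. Marker sums were compared as log2(CPM + 1) by exact two-sided permutation tests over 1716 splits, whose smallest possible p is 5.83e-04. No pair of libraries of the same group agreed within sampling noise, and pairs across the groups were not compared.

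The genes, lists and tests were chosen with earlier results of these data known. Described are all 39 genes, the 3 smallest p past the threshold and the most abundant gene of each target list, and genes said to be chosen after their values were seen. Some genes of these lists are counted but not reported here. The alternatives were DESeq2 1.42.0, its size factors or library totals, other filters, a stricter threshold (0.01), CONV-R libraries of only 1 code number, marker covariates and left-out libraries. Leaving out CONV-R 5 and GF 12 together was chosen after seeing the data.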

Additional observations from a re-analysis of the deposited data

Results flagged for a closer look

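Single libraries that stood apart within their group, by a gap to the nearest other library above Dixon's critical value, were looked for in 77 described genes, 154 groups of values. There were 13, where chance alone gives about 1 in 20 groups. Of these, 4 were in the receptors described here. Esrrb at 32.4 CPM and Rarg at 169 CPM were the lowest of GF in GF 12, Rora at 28.1 CPM was the lowest of GF in GF 9, and Nr3c2 at 7.86 CPM was the lowest of CONV-R in CONV-R 1.

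Among other genes, CONV-R 1 was the highest of CONV-R in Lck (78.0 CPM) and Zbtb16 (6.74 CPM), and the lowest in Stab2 (2701 CPM) and Zbtb46 (67.6 CPM). CONV-R 7 was the highest of CONV-R in Nr3c1 (266 CPM). GF 12 was the highest of GF in Cyp7a1 (0.809 CPM) and Zbtb46 (147 CPM), GF 8 in Lck (20.02 CPM), and GF 13 in Cyp3a11 (1.62 CPM). CONV-R 1 accounts for 5 of the 13 and GF 12 for 4.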

How the results depend on the processing

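No paired analysis was possible because the groups share no replicate number. Over all genes, 1593 were higher and 1764 lower in GF. Library totals in place of TMM gave 971 higher and 2773 lower, shifting the median of all genes to -0.11 on the log2 scale and the share of higher calls to 25.9% from 47.5%; a threshold of 0.01 gave 629 and 579, CONV-R code number 10 alone 978 and 1000, leaving out CONV-R 5 and GF 12 1020 and 981, and the hepatocyte, Kupffer cell and cholangiocyte covariates 281 and 254, 719 and 605, and 272 and 139. Of the 36 receptors and coregulators tested, 3 were higher and 4 lower. A threshold of 0.01 and code number 10 alone each gave 1 higher and 2 lower, and code number 9 alone 5 and 7 (33.3% of the 36, against 34.04% of all genes, 2281 higher and 2526 lower). The cholangiocyte covariate gave 1 higher (Nr2c2) and 1 lower (Rxrg), the Kupffer cell covariate 2 higher (Nr2c2, Rxrb) and 1 lower (Rxrg), and the hepatocyte covariate 3 higher (Hnf4a, Ppara, Rxrb), of which 0 were called higher without it, and 1 lower (Rxrg). Leaving out each library gave 1013 to 1765 genes higher, 1208 to 1972 lower, 2 to 4 of the receptors and coregulators higher and 3 to 5 lower. Among the genes described here that were called with or without the hepatocyte covariate, 5 log2 fold changes turned positive with it, to 1.84 for Ppara, 0.063 for Nr1i3, 1.54 for Hnf4a, 0.76 for Creb3l3 and 0.22 for Rbp4; the cause was not tested. Rxrg passed in 26 of 26 alternatives, Nr2c2 in 25, Nr1i3 in 23, Ppargc1b in 21, Rora in 20, Rara in 12 and Esrrb in 10. Depth limits the tested genes with at most 300 counts in any library, which were Rxrg, Nr1i3, Ppara, Hnf4g, Vdr, Ppargc1a, Ppargc1b, Thrb, Nr1i2, Esrrg, Nr6a1 and Esr1.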

Other observations

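Endothelial genes known from the pericentral end of the liver sinusoid were listed after values of these data had been seen, so the list supports nothing. Of 6, 4 were higher in GF and 0 lower, beside 11.4% and 12.7% of all genes tested. Thbd, which encodes the anticoagulant receptor thrombomodulin, had 380 to 690 CPM in GF and 116.4 to 225 CPM in CONV-R (log2 fold change 1.67 ± 0.16). Wnt2, a Wnt ligand of these cells, had 244 to 435 CPM in GF and 148 to 274 CPM in CONV-R (0.88 ± 0.18), with GF 12 lowest of GF. Wnt9b had 78.3 to 120 CPM in GF and 25.6 to 91.0 CPM in CONV-R (0.81 ± 0.24), and Cdh13, a cadherin, 210 to 277 CPM in GF and 114 to 199 CPM in CONV-R (0.75 ± 0.13). Rspo3 and Kit did not pass, with log2 fold changes of 0.56 ± 0.21 and 0.19 ± 0.13.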
